A study of Mus musculus with 8 samples.

Results

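Cd8a, Cd8b1, Cd4, Zbtb7b, Gata3, Bcl11b and Satb1, 7 genes that set or mark the identity of the CD8 and CD4 T cell lineages, were followed in CD8+ tumor-infiltrating lymphocytes (TILs) with and without the histone demethylase LSD1. They were picked by symbol from the 55335 genes of the deposited count table, and all 7 were among the 15378 genes with enough reads to test. In the absence of LSD1, 2 of the 7 rose: Zbtb7b, which encodes the CD4 lineage factor ThPOK, was 2.28-fold higher, and Satb1, which encodes a chromatin organizer of T cells, was 1.57-fold higher. Transcripts of both CD8 chains were lower on average but met neither the fold nor the p threshold in the main edgeR test. Cd4 was 3.14-fold higher from a low level without passing the test, and Gata3 and Bcl11b did not differ detectably.

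The WT group held 4 samples from Lsd1f/f mice and the KO group 4 samples from Cd4-Cre+Lsd1f/f mice, all C57BL/6 mice 6 to 10 weeks old bearing implanted MC38 tumors, a mouse colon carcinoma line. Each WT sample combined cells of 2 mice, while each KO sample came from 1 mouse. Pooling thus went with genotype, so its part in any difference in spread between the groups cannot be told apart. The sorted cells were viable and positive for CD45.2, TCRβ, CD8, CD44 and PD-1, about 10000 to 20000 a sample, taken on day 18 after implantation according to the sample protocol and day 14 according to the series design. The Cre recombinase was driven by Cd4 regulatory sequence, which is active in double-positive thymocytes, so deletion is expected in CD8 as well as CD4 T cells. Both groups carried the floxed allele and only KO mice carried the Cre transgene, so an effect of the transgene and of LSD1 loss cannot be told apart here. The CD8 antibody clone recognizes the β chain, and beads had already enriched CD8+ cells, so the presence of Cd8a and Cd8b1 transcripts was built into the sort. The WT samples are named S1, S2, S3 and S4 here and the KO samples S5, S6, S7 and S8, and values are listed in that order.

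Developing T cells pass through a stage with both coreceptors and then keep one of them. ThPOK directs thymocytes to the CD4 lineage and represses the CD8 program, Runx3 directs them to the CD8 lineage and silences Cd4 and Zbtb7b, and GATA3 acts upstream of ThPOK. Bcl11b and Satb1 act in both lineages, Bcl11b by holding cells in the T cell fate and Satb1 by organizing chromatin at lineage genes, including those of the coreceptors and of ThPOK.

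Total counts were 11657807 to 30295406 a sample, and levels are given as CPM, the reads of a gene relative to the size of its library, with TMM scaling between libraries. The test was the edgeR quasi-likelihood test, adjusted by the Benjamini-Hochberg method over all 15378 genes. A gene was called when it changed over 1.5-fold with an adjusted p under 0.01. Kdm1a, which encodes LSD1, had 42.7 to 47.2 CPM in WT and 25.2 to 34.8 CPM in KO, a fold change of 0.684 (edgeR adjusted p = 0.0163) that was not called, and gene-level counts include exons outside the deleted part. Of 17 macrophage and monocyte genes, 16 were tested and 12 were called lower in KO. Their summed level was 314 to 887 CPM in WT, highest in S3, and 61.0 to 107 CPM in KO, with none of the 17 at 0 in all samples. The part of these cells in the differences below was not tested. In bulk RNA, fewer cells of a type and less RNA per cell cannot be told apart, which bears on every level given here.

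**Figure D1:**
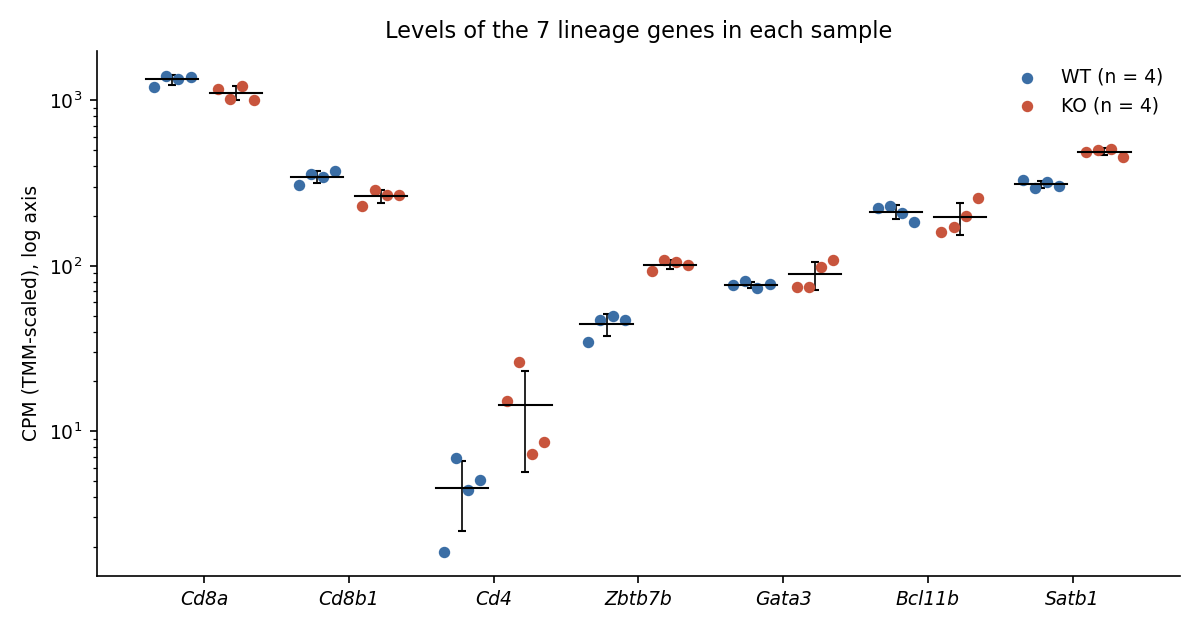
CPM after TMM scaling (log axis) of the 7 genes in each of the 4 WT and 4 KO samples (points), with the group mean (wide bar) and SD (thin bar). The KO points lay above every WT point for Zbtb7b, Satb1 and Cd4, below every WT point for Cd8b1, and the points of the groups overlapped for the other 3 genes.

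Cd8a and Cd8b1 encode the α and β chains of the CD8 coreceptor and lie near each other on chromosome 6 (GRCm38, Cd8a at 71373427 to 71379173 and Cd8b1 at 71322788 to 71337494, both on the plus strand). The tested gene Gm44174 lies between them and was not called (log2 fold change -0.09, edgeR adjusted p = 0.818). Cd8a had 1205, 1411, 1353 and 1392 CPM in the WT samples and 1173, 1026, 1227 and 1012 CPM in the KO samples. The groups overlapped only through the lowest WT sample and the highest KO sample. The mean was 1340 ± 93.3 CPM in WT and 1109 ± 107 CPM in KO (SD, n = 4 each), a log2 fold change of -0.27 ± 0.09 (SE, edgeR adjusted p = 0.0676).

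Cd8b1 had 306, 359, 343 and 377 CPM in the WT samples and 231, 289, 267 and 268 CPM in the KO samples. Every KO sample lay below every WT sample. The log2 fold change was -0.39 ± 0.10 (SE, n = 4 each, edgeR adjusted p = 0.0158), a 1.31-fold lower level that met neither the fold nor the p threshold. The 95% confidence interval, from -0.60 to -0.18 on the log2 scale, reached just beyond a 1.5-fold decrease. By the DESeq2 Wald test Cd8b1 passed the p threshold (adjusted p = 0.00159), while its log2 fold change of -0.39 again missed the fold threshold.

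No difference in the balance of the 2 chains was detectable. Cd8b1 counts were 25.4%, 25.5%, 25.3% and 27.1% of Cd8a counts in the WT samples and 19.7%, 28.1%, 21.8% and 26.5% in the KO samples. The KO values spread on both sides of the WT values. The mean difference in the log2 ratio, KO minus WT, was -0.12 (exact two-sided permutation test, n = 4 each, p = 0.4, also 0.4 after adjustment over the 3 ratios tested).

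Cd4, the gene of the other coreceptor, lies on chromosome 6 at 124864692 to 124888221 on the minus strand. Its level was low in every sample but above 3 counts, which correspond to 0.106 to 0.25 CPM in these libraries. Cd4 had 1.86, 6.87, 4.41 and 5.03 CPM in the WT samples (32, 126, 54 and 61 counts) and 15.2, 26.2, 7.26 and 8.55 CPM in the KO samples (232, 324, 87 and 243 counts). All KO samples lay above all WT samples, but S7 and S8 lay close to the highest WT sample. The log2 fold change was 1.65 ± 0.42 (SE, n = 4 each, edgeR adjusted p = 0.0161), with a 95% confidence interval from 0.76 to 2.53, and Cd4 was not called. Without S6, the highest sample, it was 1.19 (edgeR adjusted p = 0.0855). Gene-level counts cannot show whether any transcript of the Cre transgene was counted as Cd4.

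Relative to Cd8a, Cd4 counts were 0.154%, 0.487%, 0.326% and 0.361% in the WT samples and 1.30%, 2.55%, 0.592% and 0.845% in the KO samples. The KO samples were all higher, as they were for Cd4 alone, so the ratio is no separate support for a rise of Cd4. The log2 ratio, computed with 2 added to each count, was 1.85 higher in KO (exact two-sided permutation test, n = 4 each, p = 0.0286, the smallest p that 4 against 4 samples allow, and 0.0429 after adjustment over the 3 ratios). Cd4 counts remained below 3% of Cd8a counts in every sample.

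Zbtb7b lies on chromosome 3 at 89377644 to 89394776 on the minus strand. RefSeq lists 2 start sites for it in its promoter table (GRCm38.p6). The 250 bases before the inner start, chr3:89387672-89387921, read on the minus strand, lie in an intron of the gene and are shown because Zbtb7b changed most among the called members and RUNX proteins are known repressors of it.
Zbtb7b inner start: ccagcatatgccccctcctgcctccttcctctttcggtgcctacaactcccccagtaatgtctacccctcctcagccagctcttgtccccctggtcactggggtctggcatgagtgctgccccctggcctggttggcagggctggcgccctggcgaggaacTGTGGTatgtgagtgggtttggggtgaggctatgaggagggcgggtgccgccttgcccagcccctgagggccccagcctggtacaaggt
The capitals mark a match to TGTGGT, the core motif bound by RUNX proteins, searched on both strands. Such a match stands in 14.05% of all 32851 RefSeq windows of this length, and it is a description of the letters, not of a bound site. The motif of TCF1 and LEF1, spelled CTTTGA, stands in 13.83% of windows but not in this one on either strand. The motif of the GATA3 family, spelled AGATAA, stands in 9.99% of windows and is likewise missing from this one. The window before the outer start, which includes annotated exon and is not shown, held none of the 3 motifs.

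Zbtb7b had 34.5, 46.7, 49.9 and 47.1 CPM in the WT samples and 92.9, 108, 105 and 100.5 CPM in the KO samples. The KO samples all lay above the WT samples, and the gap between 49.9 and 92.9 CPM was wider than either group's range. The mean was 44.6 ± 6.85 CPM in WT and 101.6 ± 6.66 CPM in KO (SD, n = 4 each). The log2 fold change was 1.19 ± 0.13 (SE, edgeR adjusted p = 9.31e-06), with a 95% confidence interval from 0.92 to 1.46. An antisense gene, Gm15417, shares 116 exonic bases with Zbtb7b and had 0 to 56 counts a sample against 571 to 2856 for Zbtb7b.

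Of the 7 genes, Zbtb7b and Satb1 were called higher by edgeR, and DESeq2 called Cd4 as well. Neither tool called a member lower, although Cd8a and Cd8b1 were lower at an unadjusted p under 0.05 in edgeR. Cd8a ranked 2051 among the 15378 genes by edgeR p, so at least 2051 genes had an unadjusted p under 0.05. The exact share of all genes was not counted, so counts at this threshold below only describe their lists. The 2 of 7 called higher by edgeR stand against 2.91% of all tested genes called higher, 1.99% called lower and 4.90% called in either direction. The groups did not overlap for 4 of the 7, against 17.3% of all tested genes. The median log2 fold change was 0.21 over the 7 genes and -0.01 over all tested genes.

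**Figure D2:**
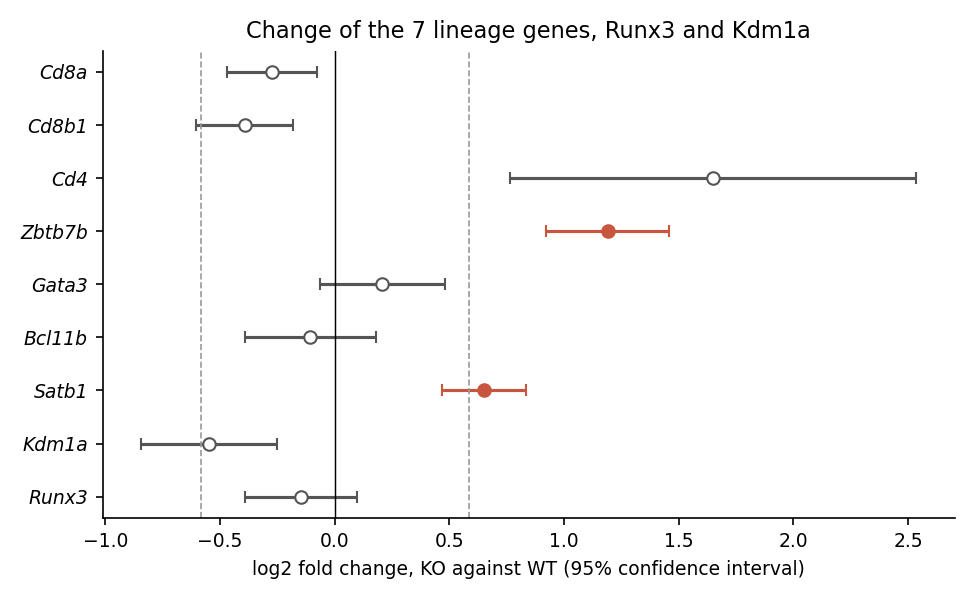
Log2 fold change, KO against WT, with its 95% confidence interval for the 7 genes, Kdm1a and Runx3 (4 samples a group). Filled red points passed both thresholds, open points did not, and the dashed lines mark a 1.5-fold change. The interval of Zbtb7b lay wholly beyond 1.5-fold, while that of Satb1 reached below it.

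Runx3, the CD8 lineage factor that opposes ThPOK, was not called. Its level was 261, 238, 239 and 237 CPM in the WT samples and 222, 189, 193 and 275 CPM in the KO samples. S8 was the highest of all 8 and S6 the lowest, so the groups overlapped. The log2 fold change was -0.15 ± 0.12 (SE, n = 4 each, edgeR adjusted p = 0.486).

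Zbtb7b counts therefore came to a larger share of Runx3 counts in KO. They were 13.3%, 19.6%, 20.9% and 19.9% in the WT samples and 41.9%, 57.2%, 54.4% and 36.5% in the KO samples. No KO value fell within the WT range, as for Zbtb7b alone, so the ratio is no separate support for the rise of Zbtb7b. The log2 ratio was 1.36 higher in KO (exact two-sided permutation test, n = 4 each, p = 0.0286, adjusted p = 0.0429 over the 3 ratios). Runx3 remained the more abundant transcript in every sample, also per length, where the Zbtb7b to Runx3 ratio averaged 0.165 in WT and 0.425 in KO.

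**Figure D3:**
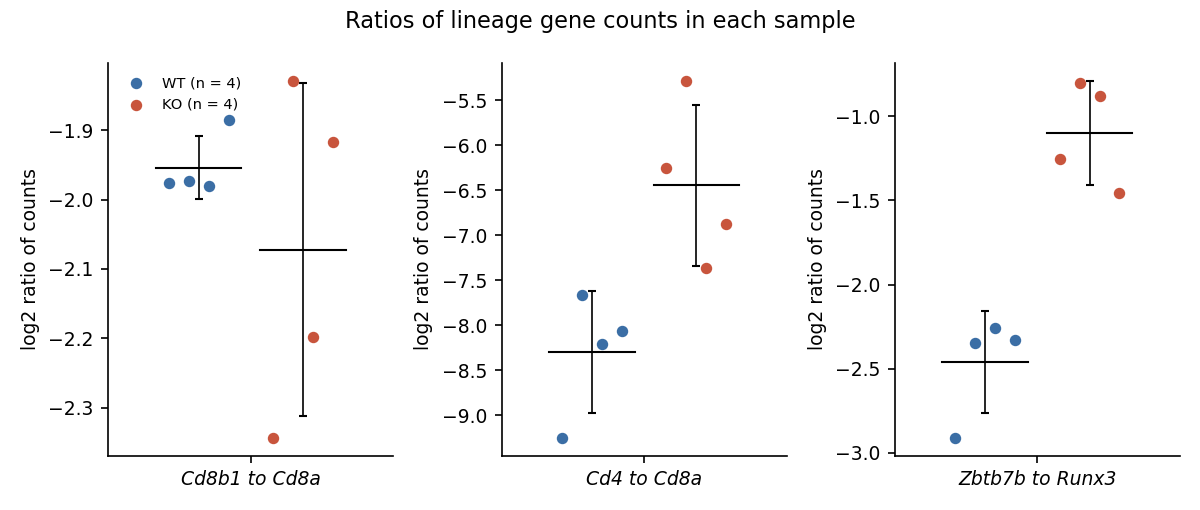
Log2 ratios of raw counts with 2 added to each, for Cd8b1 to Cd8a, Cd4 to Cd8a and Zbtb7b to Runx3, in 4 WT and 4 KO samples (points), with mean and SD. The 3 vertical axes differ in range. The KO points lay above all WT points in the second and the third panel, and on both sides of the WT points in the first.

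Gata3 lies on chromosome 2 at 9857078 to 9890034 on the minus strand. It had 76.1, 80.9, 72.9 and 77.8 CPM in the WT samples and 74.8, 74.2, 98.2 and 107.8 CPM in the KO samples. S5 and S6 lay within the WT range and S7 and S8 above it. This was a log2 fold change of 0.21 ± 0.13 (SE, n = 4 each, edgeR adjusted p = 0.356), and its 95% confidence interval, from -0.07 to 0.48, stayed below a 1.5-fold increase. The 3 genes that overlap Gata3 had at most 60 counts in any sample, against 894 or more for Gata3.

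Bcl11b, which encodes a zinc finger factor needed for T cell commitment, lies on chromosome 12 at 107910403 to 108003602 on the minus strand. It had 225, 231, 209 and 183 CPM in the WT samples and 160, 170, 200 and 258 CPM in the KO samples. The KO samples spanned a wider range than the WT samples and held both the lowest and the highest value. The difference was a log2 fold change of -0.11 ± 0.13 (SE, n = 4 each, edgeR adjusted p = 0.70), with a 95% confidence interval from -0.39 to 0.18.

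Satb1 lies on chromosome 17 at 51736187 to 51833290 on the minus strand, and RefSeq lists 5 start sites for it. The window before the outermost start, chr17:51833291-51833540, minus strand, lies just outside the annotated gene and is shown as the counterpart of the Zbtb7b window, because these are the 2 genes that were called.
Satb1 outermost start: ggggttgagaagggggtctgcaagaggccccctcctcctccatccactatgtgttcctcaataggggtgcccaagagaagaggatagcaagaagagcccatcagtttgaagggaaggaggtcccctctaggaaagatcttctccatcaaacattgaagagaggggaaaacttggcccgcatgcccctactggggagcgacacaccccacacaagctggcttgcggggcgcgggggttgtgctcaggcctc
None of the 3 motifs searched in the Zbtb7b window occurs here, so the sequence holds no capitals, and none occurs in the windows before the other 4 starts. Its GC content is 58.0%, against 64.8% in the Zbtb7b window and a median of 52.4% over all windows. Gene-level counts do not separate the starts of either gene. The RefSeq table also held windows for Gata3, Cd8a and Bcl11b, and none were matched for Cd4 and Cd8b1. Of the 10 windows of members, the inner Zbtb7b window alone held TGTGGT and the Bcl11b window alone held CTTTGA.

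Satb1 had 328, 297, 319 and 302 CPM in the WT samples and 486, 504, 509 and 458 CPM in the KO samples. The ranges were narrow and well apart. The mean was 312 ± 14.4 CPM in WT and 489 ± 23.5 CPM in KO (SD, n = 4 each). The log2 fold change was 0.65 ± 0.09 (SE, edgeR adjusted p = 8.68e-05), with a 95% confidence interval from 0.47 to 0.83 that included changes below 1.5-fold.

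The annotation places 6 further genes of unproven status within Satb1, 5 of them on the same strand. All 5 were higher in every KO sample than in every WT sample, with log2 fold changes from 0.58 to 0.89, and 2 were called. Gm36931 had 54.0, 36.9, 33.1 and 33.2 CPM in the WT samples and 68.7, 91.0, 71.3 and 60.5 CPM in the KO samples (log2 fold change 0.89, edgeR adjusted p = 0.00227, n = 4 each). Gm37248 rose by 0.71 on the log2 scale (edgeR adjusted p = 0.00259). Gm36931 shares 156 exonic bases with Satb1 and the other 4 share none. These libraries were made from rRNA-depleted total RNA, which keeps unspliced transcripts, so reads from Satb1 introns and reads from these genes cannot be told apart. The opposite-strand gene, Gm6934, overlapped between groups (log2 fold change 0.19, edgeR adjusted p = 0.819). The kit marks strand, but the strand setting of the counting was not given in the sources used here.

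**Figure D4:**
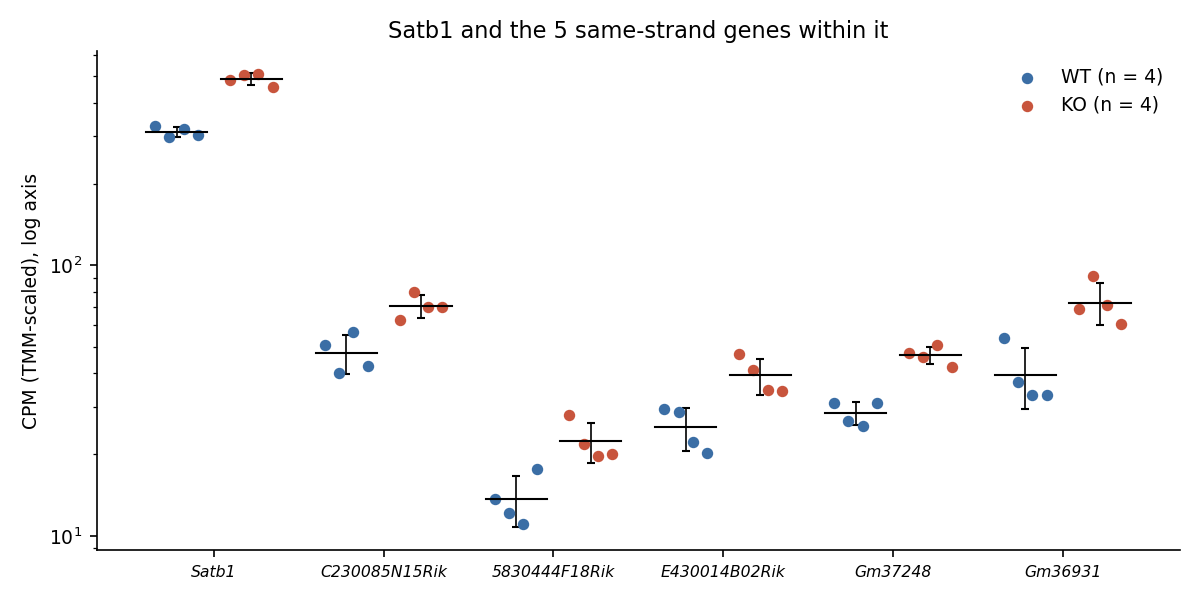
CPM after TMM scaling (log axis) of Satb1 and of the 5 genes annotated within it on the same strand, in 4 WT and 4 KO samples (points), with the group mean (wide bar) and SD (thin bar). For all 6 the KO points lay above the WT points, and the 5 inner genes were several-fold below Satb1.

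Per kilobase of annotated exon, the coreceptor chains of the CD8 lineage led by far. The length counts all annotated exons of a gene, not the transcript present, so the order of genes with close levels may depend on it. In WT the mean levels were 369 CPM per kb for Cd8a and 233 for Cd8b1, then 26.2 for Bcl11b, 19.3 for Gata3, 16.4 for Satb1, 7.97 for Zbtb7b and 1.13 for Cd4. No neighbours in this order overlapped in WT. In KO the order was 305 CPM per kb for Cd8a, 178 for Cd8b1, 25.7 for Satb1, 24.3 for Bcl11b, 22.3 for Gata3, 18.2 for Zbtb7b and 3.55 for Cd4. Satb1 and Bcl11b overlapped in KO, as did Bcl11b and Gata3, while the samples of Gata3 and Zbtb7b overlapped. Averaged over both groups, Cd8a ranked 58 and Cd4 10361 among 15364 genes with a known exon length.

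In a wider list of 29 lineage regulators, all tested, Il7r rose and Tox and Dnmt3a fell, and the median log2 fold change was -0.02, against -0.01 over all tested genes. Over all tested genes, edgeR called 2.91% higher and 1.99% lower. Of the 29, 6 were higher and 4 lower in KO at an unadjusted p under 0.05 in edgeR. Il7r, the interleukin-7 receptor chain, rose 1.20 on the log2 scale, from 184 ± 23.9 to 424 ± 60.7 CPM (SD, n = 4 each, edgeR adjusted p = 4.65e-06). Tox, a factor needed for CD4 lineage development and known from exhausted CD8 cells, fell by 1.17 on the log2 scale, from 96.6 to 43.0 CPM (edgeR adjusted p = 3.3e-05). Dnmt3a, a DNA methyltransferase, fell by 0.59 on the log2 scale (edgeR adjusted p = 0.000739), close to the fold threshold, and was no longer called without S1, S6 or S7. Ets1 and Chd4 were the most abundant of those not called, at 881 and 700 CPM in WT and 1065 and 717 CPM in KO.

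Of 17 helper and regulatory T cell genes, 12 were tested, and the median log2 fold change was 0.66, against -0.01 over all tested genes. EdgeR called 2 higher and 1 lower, against 2.91% of all tested genes called higher and 1.99% called lower. At an unadjusted p under 0.05 in edgeR, 6 of the 12 were higher and 1 lower in KO, against at least 2051 of all 15378 genes in either direction. DESeq2 called 4 higher and 1 lower, against 617 higher and 461 lower of all 15378 genes. Izumo1r went from 3.27 to 7.59 CPM (edgeR adjusted p = 0.0238) and Il13 from 0.631 to 4.68 CPM (edgeR adjusted p = 0.0406). DESeq2 called both higher, and edgeR over all 8 samples called neither. Cd40lg, which encodes the CD40 ligand typical of helper cells, rose from 2.28 ± 0.507 CPM to 12.3 ± 4.47 CPM (SD, n = 4 each, log2 fold change 2.42, edgeR adjusted p = 0.000126). Il2ra, the high-affinity interleukin-2 receptor chain of regulatory and activated T cells, rose by 0.80, and Tnfrsf4, which encodes OX40, fell by 1.02 on the log2 scale. Foxp3, the defining factor of regulatory T cells, averaged 1.10 CPM in WT and 2.42 CPM in KO (edgeR adjusted p = 0.370), and Il5 had no counts. Ikzf2 and Nrp1, the most abundant of those not called, had 341 and 94.9 CPM in WT and 284 and 136 CPM in KO. Nrp1 passed the p threshold (edgeR adjusted p = 0.00614), but its log2 fold change of 0.52 missed the fold threshold. The part of CD4 T cells carried through the sort in the levels of Cd4 and Zbtb7b was not tested.

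The 15 cytotoxic T cell genes were all tested, 1 rose and 1 fell, and the median log2 fold change was 0.12. Of the 15, 4 were higher and 4 lower in KO at an unadjusted p under 0.05 in edgeR. Itgae, which encodes the integrin chain CD103 and is a known target of Runx3, rose by 3.00 on the log2 scale, from 10.6 to 84.5 CPM (edgeR adjusted p = 1.19e-06). Cst7, a protease inhibitor of cytotoxic granules, fell by 1.06 on the log2 scale (edgeR adjusted p = 8.12e-05). Gzmb and Prf1, the most abundant of the list, had 1267 and 846 CPM in WT and 1377 and 947 CPM in KO, and neither was called. Among 13 pan T cell genes only the adhesion receptor gene Cd2 was called, higher by 0.80 on the log2 scale. Thy1 and Cd6 had 1086 and 393 CPM in WT and 956 and 451 CPM in KO. At an unadjusted p under 0.05 in edgeR, 3 of the 13 were higher and 3 lower in KO, against at least 2051 of all 15378 genes in either direction. Cd3g and Cd247 lay lower in every KO sample than in every WT sample. Their log2 fold changes were -0.36 and -0.33 (edgeR adjusted p = 0.0505 and 0.0409). Cd3d and Cd3e had log2 fold changes of 0.02 and -0.26, and Cd5 and Cd28 of 0.33 and 0.30, all uncalled. Of the 13 genes, 6 had a log2 fold change above 0 and 7 below. The groups did not overlap for 3 of the 13, against 17.3% of all tested genes. Of the sort markers, Cd44 rose by 0.86 on the log2 scale, and Ptprc and Pdcd1 were not called.

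**Figure D5:**
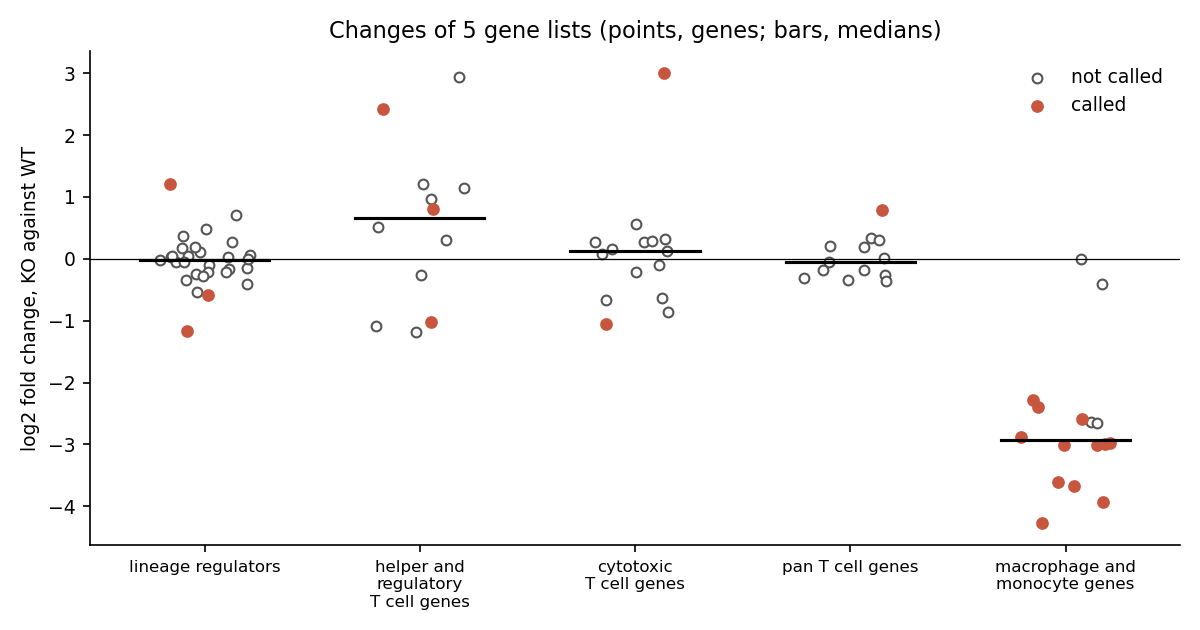
Log2 fold change, KO against WT, of the tested genes of 5 lists (points, spread sideways for sight only), with the list median (bar). Filled points passed both thresholds. The medians of the T cell lists lay between -0.04 and 0.66, and that of the macrophage and monocyte genes at -2.93.

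Genes of other cell types that could pass the sort were low or differed as follows. Among the macrophage and monocyte genes, C1qa fell from 50.0 to 3.26 CPM and C1qc from 50.4 to 4.05 CPM, while Cd68 and Itgam were not called. The 12 dendritic cell genes had 7 tested and 2 called lower, H2-Eb1 and H2-Ab1, with a summed level of 241 to 639 CPM in WT and 214 to 273 CPM in KO. That sum includes Cd74 and Itgax, not called, at 204 and 50.7 CPM in WT and 170 and 49.8 CPM in KO. Xcr1, Clec9a, Flt3, Siglech and Cd209a had too few reads to test. The gamma delta and innate-like list had 1 of 2 tested genes called higher, Il1rl1, from 6.86 to 18.8 CPM. In the lists of B cells, NK cells, thymocytes and of tumor and stroma, edgeR called none of 8 tested genes, 3 had an unadjusted p under 0.05 with a higher and 2 with a lower level in KO, and DESeq2 called Klrb1c higher. Thymocyte genes summed to 7.44 to 10.2 CPM in WT and 11.0 to 17.5 CPM in KO, nearly all of it Cd1d1, and Rag2 was at 0 in every sample.

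On either side of the 7 genes, none of the 13 nearest tested genes was called by edgeR or DESeq2, 1 had an unadjusted p under 0.05 with a higher and 1 with a lower level in KO, and their log2 fold changes ran from -1.03 to 0.36, with adjusted p from 0.0891 upward in the edgeR test. Gpr162, 708 bases from Cd4 at lower coordinates, had a log2 fold change of 0.36 (edgeR adjusted p = 0.407). Lag3, an inhibitory receptor gene, is the nearest tested gene to Cd4 at higher coordinates, 16139 bases away. Lag3 had 246 ± 28.3 CPM in WT and 299 ± 56.2 CPM in KO (SD, n = 4 each, edgeR adjusted p = 0.171). Smyd1, next to Cd8b1, was lower in every KO sample than in every WT sample, at 33.6 ± 3.66 CPM in WT and 25.0 ± 3.07 CPM in KO (SD, n = 4 each, edgeR adjusted p = 0.0891).

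The genes whose levels followed each member most closely were ranked by the correlation of log2 CPM over the 8 samples among genes of mean log2 CPM above 2, as a measure of likeness only. The samples share libraries and fall into 2 groups, so genes that differ between the groups score high. Closest to Zbtb7b were Tgfbr3 (r = 0.992), Gclc (r = 0.989) and P2ry14 (r = 0.988), and closest to Satb1 were Itga1 (r = 0.992), Tgif1 (r = 0.990) and Ep300 (r = 0.990), all 6 called higher. Closest to Cd4 were Fam124b, Rasgrf2 and Mid2 (r = 0.968 to 0.987), not called by edgeR, and Rasgrf2 went from 1.68 to 7.69 CPM. Cd8a was followed by Chpt1, Pggt1b and Pfkm, and Cd8b1 by Gm5611, Eif3c and Pcyox1, not called by edgeR. Gata3 lay closest to Ripk1, Arl4c and H2-D1 (r = 0.927 to 0.949), and Bcl11b to Ube2s, Ccdc88b and C230096K16Rik (r = 0.952 to 0.973), not called by edgeR either. Of these 15 genes close to the uncalled members, 4 were higher and 6 lower in KO at an unadjusted p under 0.05, and DESeq2 called 2 higher and 1 lower.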

How the data were processed

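RNA of sorted CD8+CD44+PD-1+ TILs from 4 WT and 4 KO samples was depleted of rRNA and sequenced from both ends with a directional kit. Raw counts per GENCODE gene were deposited by the authors, who had mapped read pairs to GRCm38 using STAR and assigned them with featureCounts, one column a sample. The columns carry plain sample numbers. Their groups follow the study's principal component plot, which marks columns 1 to 4 as WT and columns 5 to 8 as KO, so no column was matched to a replicate number.

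Of 55335 identifiers, 55154 matched GENCODE M21, which gave symbols, positions on GRCm38 and exon lengths. Genes were filtered with filterByExpr, scaled by TMM and tested with edgeR 4.0.16 in R 4.3.3, fitting WT and KO over 8 samples with no covariate. CPM used TMM-scaled library sizes, and ratios used raw counts with 2 added. Gene fits were tested on simulated data. The members and lists were chosen with earlier results of these data known. The text names the 7 members, of each list up to 4 called genes with the largest change and up to 2 abundant genes not called, Runx3, the nearest tested neighbours and the 3 most alike genes. Foxp3, Il5, Rag2, Cd1d1, Cd3g, Cd247 and the genes within Satb1 were added after their values were seen, as were genes whose call changed with the setting. Alternatives were DESeq2 1.42.0, other scalings, filters and thresholds, GC offsets, protein-coding genes alone and each sample left out. Replicates differed by more than sampling noise. Confidence intervals of fold changes come from the edgeR fit and include the spread between samples. The CPM given for 3 counts is a conversion by scaled library size and covers no error.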

Additional observations from a re-analysis of the deposited data

Results flagged for a closer look

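Among 20 groups of 4 values tested (the log2 CPM of the 7 genes and the 3 log2 ratios in each genotype), 2 held a sample whose gap to its nearest neighbour took up more of the group range than Dixon's limit allows, where chance alone gives about 1 in 20. For the log2 ratio of Cd8b1 to Cd8a in WT, S4 lay above the other 3 samples by 0.931 of the range (-1.89 against -1.98 to -1.97), a range that is small beside that of KO. For the log2 ratio of Zbtb7b to Runx3 in WT, S1 lay below the others by 0.865 of the range (-2.91 against -2.34 to -2.26), and every KO sample was still above the other WT samples.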

How the results depend on the processing

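Over 16 refits each, and at an adjusted p under 0.05, Zbtb7b (log2 fold change 1.09 to 1.25) and Satb1 (0.63 to 0.68) were called in all, and Cd8a, Cd8b1, Gata3 and Bcl11b in none. Cd8b1 missed only the fold threshold by DESeq2 (adjusted p = 0.00159), with no filter on low counts (edgeR adjusted p = 0.00746) and without S1 (edgeR adjusted p = 0.00886). Cd4 was called with no filter on low counts (1.65, edgeR adjusted p = 3.57e-06), by the DESeq2 Wald test (1.66, adjusted p = 0.00143) and at an adjusted p under 0.05 (1.65), and not in the others (adjusted p up to 0.0855 in edgeR); the cause was not tested. Of all genes, the called higher count was 447 and reached 695 at an adjusted p under 0.05. The called lower count of 306 became 531 with no filter, 461 by DESeq2, 551 at an adjusted p under 0.05 and, leaving out single samples, 202 to 302, the lowest without S3. Lineage regulators called higher were 1, 2 by DESeq2 and 1 to 2 leaving out single samples (Lef1 without S5), and called lower 2, or 1 to 2 leaving out single samples (Dnmt3a lost without S1, S6 or S7). Helper and regulatory genes called higher were 2, and 4 by DESeq2. Cytotoxic genes called lower were 1, 2 by DESeq2 and 1 to 3 leaving out single samples (Eomes and Ccl5 without S8). Il1rl1 lost its call without S1, S2, S3, S5 or S6, Adgre1 and Ms4a7 without S3, and Fcer1g without S3, S4, S5, S7 or S8. The ratios kept their direction with a prior count of 0.5 and without each sample. No scaling moved the median of all genes by more than 0.03. No paired analysis was possible because the columns carry no replicate numbers. Cd4 rests on 32 to 324 counts a sample.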
